A study of Astyanax mexicanus with 78 samples.

Results

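The Mexican tetra, *Astyanax mexicanus*, lives as an eyed surface fish of rivers and as blind populations that evolved in caves, among them the Pachón cavefish. Here skeletal muscle of aged Pachón cavefish was set against skeletal muscle of aged surface fish, gene by gene. The 8 libraries compared are those that the labels give as muscle of the aged class in each population, 4 cave (numbers 5 to 8) and 4 surface (numbers 5 to 8), out of 78 libraries of brain, gut, heart, liver and muscle from young and aged fish. The aged fish were 7 to 8 years old and the young fish, used below as a second set of samples, about 1 year old, with 4 young cave and 4 young surface muscle libraries. No fish was treated or carried an allele named in the labels, and population is the difference the labels give between the groups. The labels give a portion of muscle, and neither the body region, the sex nor whether tissues of the same number came from 1 fish is stated. They do not state either that libraries of 1 group came from separate rearing tanks or families, so p-values measure the spread between these fish only. In a bulk sample, fewer cells of a type and less RNA per cell cannot be told apart.

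Skeletal muscle of teleosts is mostly fast glycolytic fibre, built of actin and myosin filaments and fuelled by glycolysis and a creatine phosphate buffer, with a thin layer of slow oxidative fibre. Its mass is set by the balance of protein synthesis, driven by insulin and insulin-like growth factors, and of breakdown, in which the ubiquitin ligases encoded by *trim63* and *fbxo32* mark filament proteins for the proteasome. Cavefish are known for fat storage, insulin resistance, an altered clock and low or absent pigment, and muscle is one of the tissues in which such metabolic differences have been studied.

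Total counts were 8403022 to 11745458 in the aged cave libraries and 10141714 to 14002802 in the aged surface libraries, and 10559 to 12048 genes had at least 10 counts in a library. The most abundant gene took 5.25% to 14.9% of the counts. Every library ranked its genes most like the median of young muscle among the 5 tissues (Spearman's rank correlation 0.927 to 0.957, a description across genes), and the filament genes *acta1b* and *mylz3* were among the most abundant named genes on average. Libraries of 1 group differed by more than counting noise in every pair, unlike 1 library sequenced again, and each was counted once. That check cannot show that they came from separate fish. The files pair no names with their Ensembl identifiers, and a symbol could be given to 2080 of 19076 genes, of which 1795 were tested, so most genes below are counted and not named. The symbols come from the name column of a table of larval responses to ultraviolet light, cut to its upper rows, so the named genes are not a random part of the genome. Lists of pathway genes were likewise tested only through members with a symbol. These were 10 of 107 DNA damage and repair, 12 of 96 respiratory chain, 4 of 50 fast fibre and 1 of 35 slow fibre genes.

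Some libraries held counts of genes specific to other tissues, which bear on particular genes. A gene was taken as specific to a tissue if its median in the young libraries of that tissue was at least 100 CPM, counts per 1e6 counts, and exceeded those of the other tissues at least 16-fold. The 137 gut-specific genes took 0.747% of the counts of aged cave library 7, and 0.0156% to 0.0393% in the other aged cave libraries, against 0.0217% to 0.106% in the aged surface libraries. Library 7 alone was rich in intestinal genes of absorption, such as the brush border peptidase gene *anpepb*, with 13.5, 5.93, 3184 and 33.3 normalized counts in aged cave muscle, against 8.98, 10.8, 70.8 and 14.2 in aged surface muscle for libraries 5, 6, 7 and 8 in turn (counts divided by the library size factor). The peptide transporter gene *slc15a1b* had 39.3, 28.5, 1616 and 11.4 in aged cave muscle, against 0.898, 6.86, 36.3 and 3.28 in aged surface muscle. The summed level of the 5 gut marker genes with a symbol, of 30 listed, was 8 to 866 CPM in aged cave libraries and 8.83 to 19.3 CPM in aged surface libraries, and none of the 5 was at 0 in all libraries. The summed level of the 4 liver markers with a symbol, of 45 listed, was also highest in cave library 7, at 547 CPM. It was 5.14 to 14.8 CPM in the other cave and 13.7 to 31.8 CPM in the surface libraries. Of the 2 markers tested, *igfbp1a* was called lower in cave and none was called higher. The 132 liver-specific genes took 0.0599% to 0.0795% of counts in the aged cave libraries, against 0.115% to 0.464% in the aged surface libraries. The highest share was in surface library 5, and cave library 7, at 0.0795%, was below every surface library. Brain-specific genes (600) took 0.1% to 0.202% in cave and 0.101% to 0.182% in surface libraries, and heart-specific genes (34) took 0.0306% to 0.075% in cave and 0.0179% to 0.237% in surface libraries. The total count of called genes and the counts of tissue-specific genes are given below with and without cave library 7. The gut-specific share of the surface libraries includes 11 genes called lower in cave, at 9.06 to 630 CPM in surface libraries. A share is therefore not a measure of other tissue alone.

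**Figure D1:**
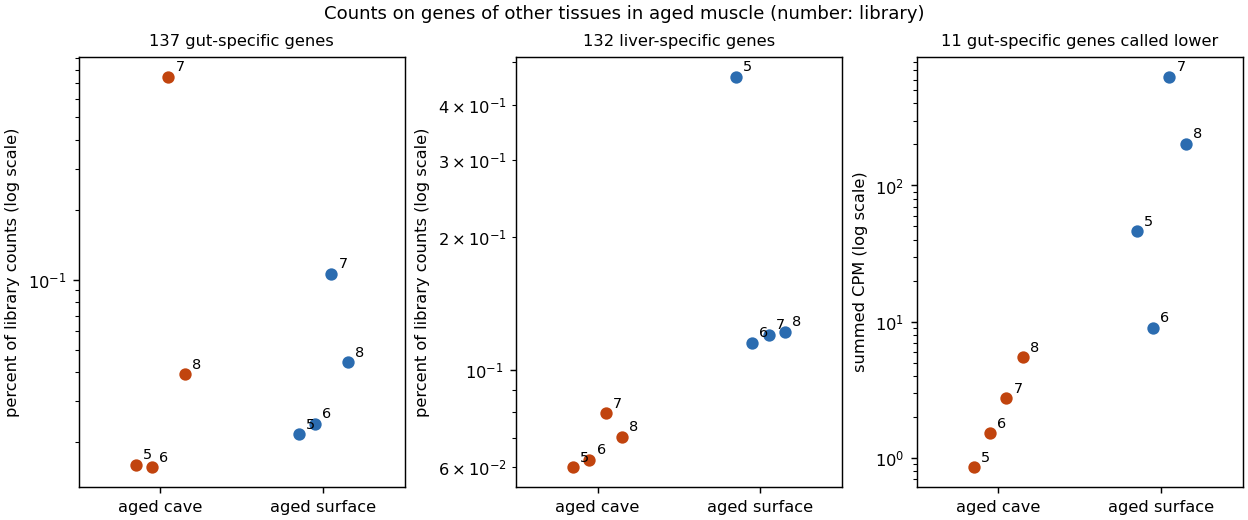
Counts on genes of other tissues in the 8 aged muscle libraries, on log axes, with each point labelled by its library number. The left and middle panels give the percent of library counts on gut-specific and liver-specific genes, and the right panel the summed CPM of the 11 gut-specific genes called lower in aged cave muscle. Cave library 7 stands at 0.747% in the left panel, surface library 5 at 0.464% in the middle panel, and in the right panel the cave libraries lie at 0.851 to 5.46 CPM and the surface libraries at 9.06 to 630 CPM.

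To ask how the populations differ in aged muscle, the raw counts were tested with the Wald test of DESeq2. A gene is said to be called where its p, adjusted by the Benjamini-Hochberg method over all genes, was under 0.05, and every adjusted p below is from DESeq2 unless edgeR is named. Fold changes are aged cave over aged surface, and values are normalized counts listed in the same library order. Of 13936 genes tested, 556 were called (3.99%), 275 higher (1.97%) and 281 lower (2.02%) in aged cave muscle. Their median absolute log2 fold change was 2.18, with quartiles of 1.43 and 3.98, and 517 changed at least 2-fold. The quasi-likelihood test of edgeR called 151 of 11438 genes (1.32%), 89 higher (0.778%) and 62 lower (0.542%), and all 151 were among the 556. Values of the groups did not overlap for 476 of the 556 called genes (85.6%), against 8.78% of all genes tested. The calls rest on these same values, so the lack of overlap describes them and is no separate support. The median log2 fold change over all genes tested was 0.01.

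The count of calls moved with single libraries. Without cave library 6, 361 genes were called, without cave library 7 it was 361, without surface library 6 it was 362 and without surface library 8 it was 899. With each of the other 4 left out it was 412 to 545. Of the 556 genes, 339 were called without cave library 7, and 556 had the same direction there. Altogether 221 genes (39.7% of the called genes) passed with each of the 8 libraries left out in turn, 117 higher and 104 lower. Without both cave library 7 and surface library 5, 231 of the 556 were called, out of 265 calls.

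**Figure D2:**
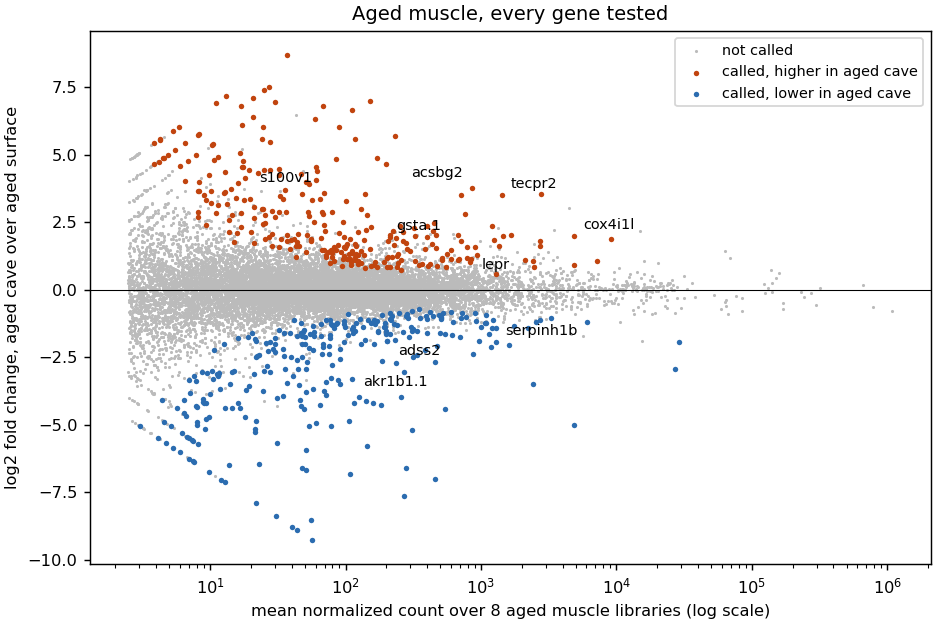
Log2 fold change of aged cave over aged surface muscle (vertical axis) against the mean normalized count of the 8 libraries (horizontal axis, log scale) for the 13936 genes tested. Red points are the 275 genes called higher and blue points the 281 called lower in aged cave muscle, and the genes with the widest differences have means under 1000.

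Among genes with a symbol, 54 of 1795 were called (3.01%), 38 higher and 16 lower in aged cave muscle. Of these, 53 are described below, and those outside the fixed naming rule were chosen after their values were seen. edgeR called 12 of them (0.669%): *tecpr2*, *acsbg2*, *lepr*, *gsta.1*, *sema6e*, *dbpb*, *s100v1*, *ank1b* and *camta1b* higher, and *akr1b1.1*, *adss2* and *tomm22* lower. DESeq2 called 20 with each library left out in turn, which were these 12 and *ckmt1*, *rreb1a*, *leap2*, *got1*, *niban1b*, *serpinh1b*, *tbc1d2* and *si:dkey-33c12.3*. Without cave library 7, 27 of the 54 were called.

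The named gene with the smallest adjusted p was *akr1b1.1*, an aldo-keto reductase of the aldose reductase family, which reduces sugars and lipid aldehydes. It had 29.4, 17.8, 15.3 and 20.4 normalized counts in aged cave muscle, against 172, 202, 254 and 184 in aged surface muscle. Every cave library was below every surface library (log2 fold change -3.30 ± 0.34 SE, adjusted p = 4.72e-18; edgeR adjusted p = 0.00199). The symbol belongs to 2 gene identifiers in the annotation used, so reads could have been split between near-identical copies. The gene *adss2*, which encodes the enzyme that commits inosine monophosphate to AMP synthesis, had 315, 365, 373 and 231 in aged cave muscle, against 875, 1343, 891 and 1193 in aged surface muscle, again without overlap (log2 fold change -1.75 ± 0.28 SE, adjusted p = 1.72e-07; edgeR adjusted p = 0.0114).

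Genes tied to mitochondria, with 1 cytosolic enzyme of a mitochondrial shuttle among them, were called in both directions. The gene *tomm22*, a receptor of the protein import complex of the outer membrane, had 142, 91.3, 66.5 and 45.4 normalized counts in aged cave muscle, against 263, 434, 245 and 326 in aged surface muscle (log2 fold change -1.88 ± 0.40 SE, adjusted p = 0.00032; edgeR adjusted p = 0.0425). The gene *coq9*, required for ubiquinone synthesis, had 2311, 2028, 1533 and 1001 in aged cave muscle, against 3189, 3224, 3975 and 4560 in aged surface muscle (log2 fold change -1.12 ± 0.32 SE, adjusted p = 0.0169). For *got1*, the cytosolic aspartate aminotransferase of the malate-aspartate shuttle, the values were 1405, 1660, 1040 and 792 in aged cave muscle, against 2599, 3339, 2196 and 4864 in aged surface muscle (log2 fold change -1.41 ± 0.36 SE, adjusted p = 0.00449). All 3 were lower in aged cave muscle, with no overlap of the groups. The gene *cox4i1l*, a cytochrome c oxidase subunit IV paralogue, was higher, with 13780, 8186, 5990 and 3137 in aged cave muscle, against 769.6, 806, 1748 and 4439 in aged surface muscle (log2 fold change 2.00 ± 0.60 SE, adjusted p = 0.0258). Cave library 8 at 3137 was below surface library 8 at 4439, and edgeR gave an adjusted p of 0.194. The gene *ckmt1*, the ubiquitous mitochondrial creatine kinase, which is a gene of brain and gut more than of muscle, had 438, 45.1, 187 and 65.9 in aged cave muscle, against 4.49, 37.2, 22.9 and 10.9 in aged surface muscle (log2 fold change 3.28 ± 0.75 SE, adjusted p = 0.000955). Of 12 respiratory chain genes tested, 1 (*cox4i1l*) was called higher and none lower. The log2 fold change of the other 11 was below 0, with a list median of -0.46 against 0.01 over all genes, of which 7018 of 13936 were above 0. The gene *atp5fa1*, the alpha subunit of ATP synthase, ranged from 14290 to 21930 in aged cave libraries and 21900 to 46610 in aged surface libraries (log2 fold change -0.68, adjusted p = 0.307), and the group ranges overlapped.

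In the group of autophagy and protein breakdown, *tecpr2*, which encodes a tectonin repeat protein that takes part in autophagy, had 799, 3127, 3515 and 3009 normalized counts in aged cave muscle, against 180.5, 153, 340.4 and 254 in aged surface muscle. Every cave library exceeded every surface library (log2 fold change 3.50 ± 0.46 SE, adjusted p = 2.99e-11; edgeR adjusted p = 0.00744). None of 9 tested genes of the proteolysis and autophagy list was called. Of the 9, 8 had a log2 fold change above 0 (7018 of 13936 over all genes tested), with a median of 0.46. Within that list, *trim63a*, the muscle RING finger ubiquitin ligase, had 5046, 23550, 24360 and 45660 in aged cave muscle, against 1489, 1571, 3011 and 15500 in aged surface muscle (log2 fold change 2.19 ± 0.75 SE, adjusted p = 0.0759). Surface library 8 lay between cave libraries 5 and 6, apart from the other surface libraries. Without that library the log2 fold change of *trim63a* was 3.60 ± 0.58 SE (adjusted p = 1.39e-07). The fits of *trim63a* without each of the other 7 libraries are not given here. The gene *fbxo32*, the atrogin ligase, named after its values were seen, spread over a wider range within each group, 50.3, 1657, 1199 and 5274 in aged cave muscle, against 44, 9.8, 63.1 and 1483 in aged surface muscle (log2 fold change 2.35, adjusted p = 0.569). Cave library 5 stood with surface libraries 5 to 7, and surface library 8 with cave libraries 6 and 7. The proteasome gene *psma4* was at 1419 to 1827 in aged cave libraries and 979 to 2541 in aged surface libraries (adjusted p = 0.866). Another proteasome gene, *psmb1*, was at 1189 to 1647 in aged cave libraries and 669.8 to 1342 in aged surface libraries (adjusted p = 0.518).

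Among genes of lipid use and hormone signals, *acsbg2* and *lepr* were called higher and *igfbp1a* lower. The gene *acsbg2*, an acyl-CoA synthetase that activates long-chain fatty acids, had 166, 1783, 1928 and 2550 normalized counts in aged cave muscle, against 109.6, 88.2, 65 and 208 in aged surface muscle (log2 fold change 3.77 ± 0.64 SE, adjusted p = 8.41e-07; edgeR adjusted p = 0.0394). Cave libraries 6 to 8 were far above all surface libraries, while cave library 5 fell between surface libraries 5 and 8. The gene *lepr*, the receptor of the fat hormone leptin, had 1115, 1138, 1962 and 1175 in aged cave muscle, against 456, 328, 387 and 645 in aged surface muscle (log2 fold change 1.57 ± 0.33 SE, adjusted p = 0.000186; edgeR adjusted p = 0.0342). The highest value was in library 7, and the log2 fold change without it was 1.33 (adjusted p = 0.00394). The gene *lepr* was the single called gene among 17 tested genes of the lipid list, whose median was -0.23. The lipid droplet gene *plin2* ranged from 372 to 987 in aged cave libraries and 79.9 to 1660 in aged surface libraries (log2 fold change 0.39, adjusted p = 0.926), and the mitochondrial carnitine transfer gene *cpt1b* from 269 to 711 in aged cave libraries and 274 to 1758 in aged surface libraries (log2 fold change -0.54, adjusted p = 0.795). Both had their highest value in surface library 8. Of 16 insulin and growth genes, *igfbp1a* was called lower, with 76.1, 59.3, 72.7 and 91.6 in aged cave muscle, against 115, 164, 199 and 302 in aged surface muscle (log2 fold change -1.37 ± 0.37 SE, adjusted p = 0.00957). It encodes a secreted protein that binds insulin-like growth factors, and its highest young level was in liver. The liver-specific share of counts given above was likewise lower in cave libraries, and its part in the result was not tested. Without surface library 5, the library with the highest share, its adjusted p was 0.00202. It was 0.0526 without cave library 7, and *igfbp1a* was called in 5 of the 8 fits with 1 library left out, where its highest adjusted p was 0.0828. The leptin receptor and *igfbp1a* were the only members called in these lists.

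Other metabolic and detoxifying genes followed. The gene *gsta.1*, an alpha class glutathione transferase, had 1373, 1237, 919 and 906 normalized counts in aged cave muscle, against 317, 187, 445 and 306 in aged surface muscle (log2 fold change 1.82 ± 0.33 SE, adjusted p = 5.08e-06; edgeR adjusted p = 0.0173). It was the single gene called of 19 antioxidant genes tested, whose median was 0.02. The gene *sod1* ranged from 1178 to 1901 in aged cave libraries and 1007 to 1673 in aged surface libraries (log2 fold change 0.34, adjusted p = 0.722) and *prdx3* from 719 to 1997 in aged cave libraries and 1322 to 2177 in aged surface libraries (log2 fold change -0.32, adjusted p = 0.816). The gene *eno3*, the muscle enolase, had 3113, 3060, 4428 and 2528 in aged cave muscle, against 1759, 1357, 1074 and 2097 in aged surface muscle (log2 fold change 1.06 ± 0.31 SE, adjusted p = 0.021) and was the single gene called of 11 glycolysis genes, whose median was -0.05. Without cave library 7 its log2 fold change was 0.89 (adjusted p = 0.154). The gene *gapdh* spanned 56980 to 230400 in aged cave libraries and 79920 to 177500 in aged surface libraries and *ldha* 3020 to 22870 in aged cave libraries and 12160 to 32220 in aged surface libraries, with adjusted p values of 0.982 and 0.546. The gene *cmbl*, a hydrolase, had 96.1 to 167 in aged cave libraries and 32.4 to 78.1 in aged surface libraries (log2 fold change 1.41, adjusted p = 0.00926), and *cyp2r1*, the vitamin D 25-hydroxylase, 21.9 to 85.4 in aged cave libraries and 1.91 to 13.1 in aged surface libraries (log2 fold change 2.48, adjusted p = 0.00932). The gene *cyp3a65*, a cytochrome P450 whose young level was highest in gut, had 27, 16.6, 788 and 96.9 in aged cave muscle, against 19.8, 30.4, 44.9 and 21.9 in aged surface muscle (log2 fold change 2.99, adjusted p = 0.0317), and without library 7 its log2 fold change was 0.69 (adjusted p = 0.86). The gene *cyp1a*, the P450 induced through the aryl hydrocarbon receptor, had 1.23, 11.9, 96.1 and 10.6 in aged cave muscle, against 0.898, 1.96, 3.83 and 1.09 in aged surface muscle (log2 fold change 3.95, adjusted p = 0.0191). Without library 7 the log2 fold change of *cyp1a* was 2.03 (adjusted p = 0.588). Both had their highest value in the library that held gut counts, and the part of gut RNA was not tested.

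Transcription and RNA factors made up another group. The gene *dbpb*, a PAR bZIP factor that is an output gene of the circadian clock, had 563, 412, 358 and 145 normalized counts in aged cave muscle, against 64.7, 60.8, 134 and 63.4 in aged surface muscle (log2 fold change 2.19 ± 0.46 SE, adjusted p = 0.000207; edgeR adjusted p = 0.0418), without overlap, and was the single gene called of 6 clock and light genes. The gene *per2*, a clock repressor induced by light in fish, had 285, 304, 318 and 130.2 in aged cave muscle, against 91.6, 214, 157 and 432 in aged surface muscle (log2 fold change 0.21, adjusted p = 0.937). The gene *cry1a*, a partner of the period proteins, ranged from 632 to 763 in aged cave libraries and 503 to 977 in aged surface libraries (log2 fold change 0.07, adjusted p = 0.967). The study's methods place dissection in the first hours after lights on. The gene *rreb1a*, a zinc finger factor of Ras signalling, had 583, 594, 368 and 566 in aged cave muscle, against 75.4, 66.7, 49.7 and 243 in aged surface muscle (log2 fold change 2.28 ± 0.49 SE, adjusted p = 0.000385). The gene *tbx15*, a T-box factor of glycolytic fibres in mouse, ranged from 524 to 617 in aged cave libraries and 213 to 374 in aged surface libraries (log2 fold change 0.96, adjusted p = 0.0153). The gene *lmo4b* ranged from 193 to 355 in aged cave libraries and 78.4 to 161 in aged surface libraries (log2 fold change 1.16, adjusted p = 0.024). The gene *foxg1b* ranged from 7.36 to 283 in aged cave libraries and 2.87 to 36.1 in aged surface libraries (log2 fold change 2.80, adjusted p = 0.0376). The gene *camta1b*, a calmodulin-binding activator, had 20.9, 19, 22.4 and 15.9 in aged cave muscle, against 2.69, 3.92, 0.956 and 3.28 in aged surface muscle (log2 fold change 2.85 ± 0.70 SE, adjusted p = 0.00309; edgeR adjusted p = 0.0225), low counts but without overlap. By the rule above *camta1b* was brain-specific, with a young median of 112 CPM in brain, against 0.948 CPM in muscle. Splicing factors of muscle went both ways. The gene *rbm24a* ranged from 1439 to 1763 in aged cave libraries and 989 to 1068 in aged surface libraries (log2 fold change 0.59, adjusted p = 0.0485). The gene *rbfox1l* ranged from 239 to 412 in aged cave libraries and 562 to 727 in aged surface libraries (log2 fold change -0.93, adjusted p = 0.0256). The gene *rsrp1*, an arginine and serine rich gene, ranged from 4804 to 8295 in aged cave libraries and 2900 to 3742 in aged surface libraries (log2 fold change 0.93, adjusted p = 0.0132). The gene *rbm24a* had the smallest fold of the 54 and was called with none of the 8 libraries left out.

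**Figure D3:**
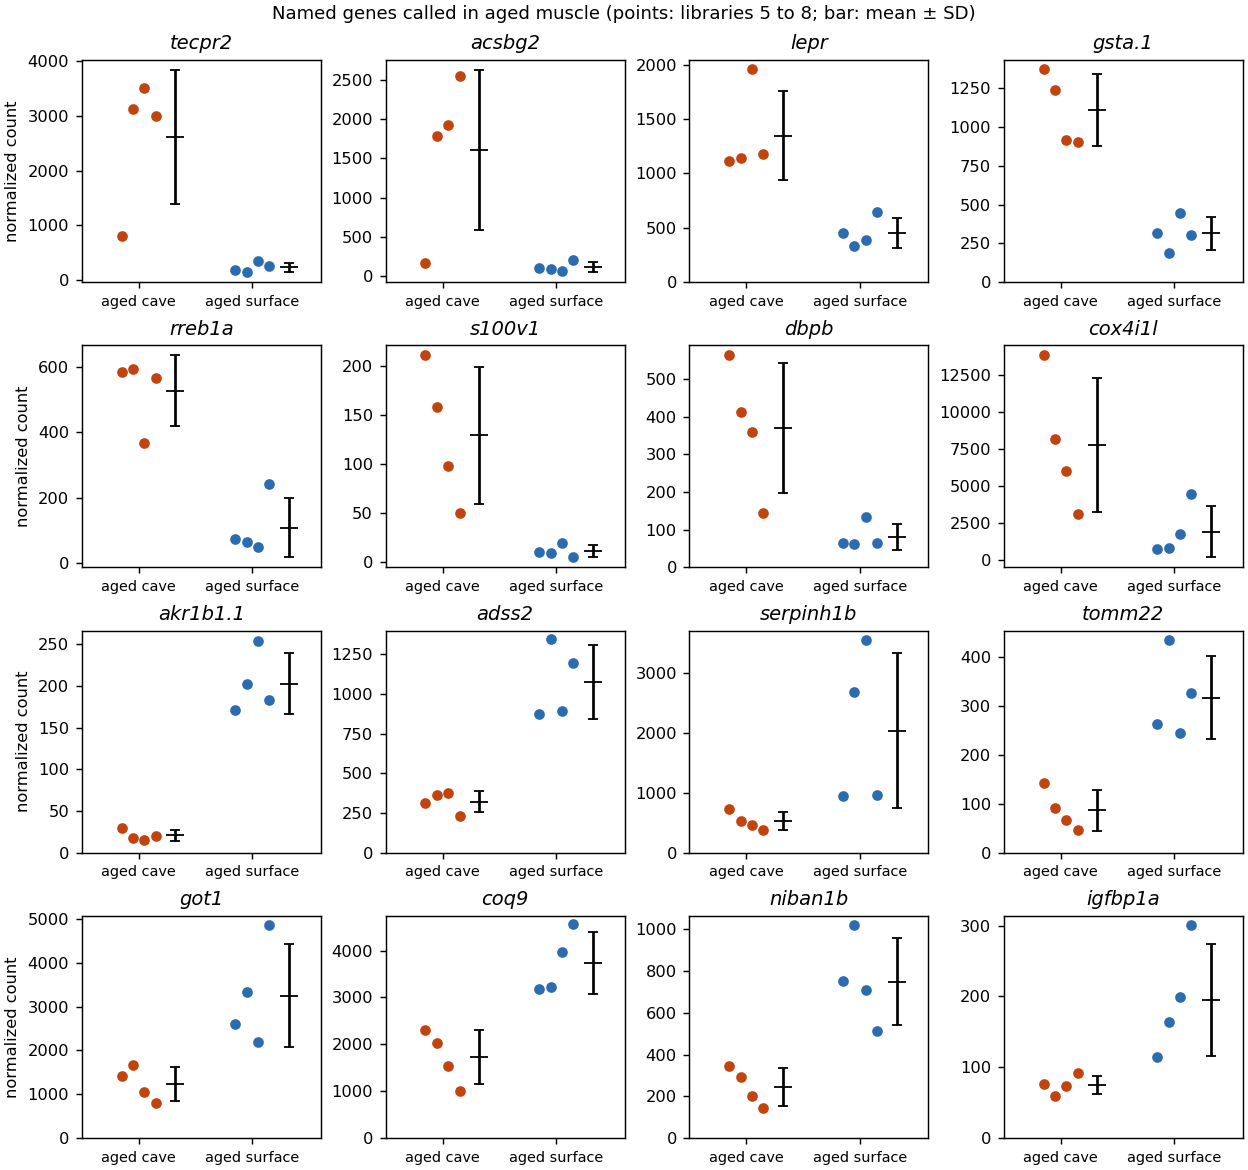
Normalized counts of 16 named genes in the 8 aged muscle libraries, cave left and surface right, with each point a library and the bar beside it the mean ± SD (n = 4). The upper 8 genes are higher and the lower 8 genes lower in aged cave muscle, and *acsbg2* and *cox4i1l* are the 2 genes with a cave library within the surface range.

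Among genes of the matrix, the membrane and signalling, *serpinh1b*, the collagen chaperone HSP47, had 734, 536, 458 and 382 normalized counts in aged cave muscle, against 953, 2693, 3556 and 962 in aged surface muscle (log2 fold change -1.95 ± 0.47 SE, adjusted p = 0.00226). Its surface libraries 6 and 7 were higher than surface libraries 5 and 8, and every cave library was below all 4. The gene *hspg2*, which encodes the basement membrane proteoglycan perlecan, had 1152, 1132, 968 and 1123 in aged cave muscle, against 332, 341, 413 and 849 in aged surface muscle (log2 fold change 1.18 ± 0.36 SE, adjusted p = 0.0287). These were the 2 called of 17 matrix genes, in opposite directions, and the list median was -0.04. Decorin (*dcn*), abundant in fibroblasts, ranged from 1157 to 2225 in aged cave libraries and 954 to 2071 in aged surface libraries (log2 fold change 0.23, adjusted p = 0.895). The gene *sema6e*, a transmembrane semaphorin of axon guidance, had 239, 166, 156 and 120.4 in aged cave muscle, against 31.4, 30.4, 47.8 and 75.4 in aged surface muscle (log2 fold change 1.88 ± 0.41 SE, adjusted p = 0.000355; edgeR adjusted p = 0.0353). The gene *robo1*, a Slit receptor, ranged from 67.4 to 155 in aged cave libraries and 33.2 to 49.2 in aged surface libraries (log2 fold change 1.27, adjusted p = 0.0243). The gene *efna2a*, an ephrin ligand, ranged from 18.4 to 71.2 in aged cave libraries and 5.46 to 10.8 in aged surface libraries (log2 fold change 2.14, adjusted p = 0.0342). The gene *ank1b*, an ankyrin that ties membrane proteins to the cytoskeleton, had 41.7, 30.9, 31.4 and 66.6 in aged cave muscle, against 3.59, 8.82, 1.91 and 7.65 in aged surface muscle (log2 fold change 2.98 ± 0.61 SE, adjusted p = 0.000118; edgeR adjusted p = 0.0271), without overlap. By the rule above *ank1b* was brain-specific, with a young median of 161 CPM in brain, against 2.13 CPM in muscle. The gene *igfn1.3*, an immunoglobulin and fibronectin repeat gene of skeletal muscle, had 6.14, 1.19, 6.29 and 0 in aged cave muscle, against 24.2, 14.7, 44 and 22.9 in aged surface muscle (log2 fold change -2.99, adjusted p = 0.0151).

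Genes of membrane traffic and kinase signalling were called in both directions. The gene *cltcl1*, the clathrin heavy chain of glucose transporter traffic in human muscle, ranged from 1014 to 1839 in aged cave libraries and 331 to 838 in aged surface libraries (log2 fold change 1.29, adjusted p = 0.0118). The gene *rab11bb*, a recycling endosome GTPase, had 223 to 302 in aged cave libraries and 124 to 191 in aged surface libraries (log2 fold change 0.84, adjusted p = 0.0382). The gene *arhgef12b*, a guanine nucleotide exchange factor, had 258 to 369 in aged cave libraries and 92.8 to 174 in aged surface libraries (log2 fold change 1.197, adjusted p = 0.0066) and *map3k21*, a mixed lineage kinase, 73.6 to 188 in aged cave libraries and 27.3 to 66.7 in aged surface libraries (log2 fold change 1.58, adjusted p = 0.015). In these 4 genes every cave library was above every surface library. The gene *tbc1d2*, a Rab GTPase-activating protein, was lower, with 49.1, 38, 26.9 and 15.9 in aged cave muscle, against 90.7, 271, 71.7 and 159.5 in aged surface muscle (log2 fold change -2.20 ± 0.52 SE, adjusted p = 0.00178). The gene *s1pr5a*, a sphingosine-1-phosphate receptor, had 6.29 to 43 in aged cave libraries and 38.62 to 195 in aged surface libraries (log2 fold change -2.02, adjusted p = 0.0399). The gene *selenot1a*, a selenoprotein of the endoplasmic reticulum, had 155 to 264 in aged cave libraries and 244 to 428 in aged surface libraries (log2 fold change -0.98, adjusted p = 0.0497), and *niban1b* 344, 291, 201 and 142 in aged cave muscle, against 754, 1021, 708 and 514 in aged surface muscle (log2 fold change -1.62 ± 0.36 SE, adjusted p = 0.000691). The ranges of *niban1b* did not overlap, whereas those of *s1pr5a* and *selenot1a* did.

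Immune and stress genes made up the remainder. The gene *s100v1*, a calcium-binding S100 gene, had 211, 158, 97.9 and 49.97 normalized counts in aged cave muscle, against 9.88, 8.82, 19.1 and 4.37 in aged surface muscle (log2 fold change 3.60 ± 0.57 SE, adjusted p = 1.13e-07; edgeR adjusted p = 0.0143). Its young level was highest in gut (median 76.4 CPM, against 6.55 CPM in muscle). The gene *leap2*, a secreted peptide that in mammals is antimicrobial and blocks the ghrelin receptor, had 149.7, 298, 189 and 301 in aged cave muscle, against 16.2, 53.9, 41.1 and 91.8 in aged surface muscle (log2 fold change 2.21 ± 0.50 SE, adjusted p = 0.000743). The gene *il20ra*, an interleukin receptor subunit, had 14.7, 13.1, 51.2 and 15.1 in aged cave muscle, against 0, 3.92, 2.87 and 1.09 in aged surface muscle (log2 fold change 3.59, adjusted p = 0.00502), with its highest level in library 7. Its young level was highest in gut (median 65.4 CPM, against 1.03 CPM in muscle), and without library 7 its log2 fold change was 2.87 (adjusted p = 0.123). The gene *mertka*, a receptor for dying cells on phagocytes, ranged from 99.2 to 152 in aged cave libraries and 50 to 75.4 in aged surface libraries (log2 fold change 1.16, adjusted p = 0.00821). The gene *tank*, a regulator of NF-kappaB, ranged from 171 to 484 in aged cave libraries and 107 to 138 in aged surface libraries (log2 fold change 1.23, adjusted p = 0.0321). The gene *dok1a*, a docking protein, ranged from 14.4 to 35.6 in aged cave libraries and 1.8 to 9.8 in aged surface libraries (log2 fold change 2.11, adjusted p = 0.0319). The gene *hspb9*, a small heat shock gene, had 3009, 1578, 8985 and 3337 in aged cave muscle, against 495, 1721, 1134 and 1431 in aged surface muscle (log2 fold change 1.82, adjusted p = 0.0236). Without library 7 the log2 fold change of *hspb9* was 1.15 (adjusted p = 0.223). It was the single gene called of 27 heat shock and early response genes, whose median was -0.39. The early response gene *NR4A1* spread over 796 to 3235 in aged cave libraries and 576 to 9061 in aged surface libraries (adjusted p = 0.581). Likewise *fosab* spread over 402 to 1430 in aged cave libraries and 311 to 4531 in aged surface libraries (adjusted p = 0.577). No gene of the leukocyte list had a symbol here, so the share of leukocytes could not be followed.

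Several named genes had low counts. The gene *aifm2*, which encodes the ubiquinone reductase that protects human cells from ferroptosis, had 0, 0, 1.8 and 4.54 in aged cave muscle, against 29.6, 32.4, 22 and 4.37 in aged surface muscle (log2 fold change -3.66, adjusted p = 0.0133). The gene *enam*, the enamel matrix gene, had 0, 0, 0 and 0.757 in aged cave muscle, against 16.2, 23.5, 0 and 19.7 in aged surface muscle (log2 fold change -5.62, adjusted p = 0.0147). By contrast *sb:cb1058* was higher in cave, with 7.36, 10.7, 27.8 and 7.57 in aged cave muscle, against 0, 0, 1.91 and 0 in aged surface muscle (log2 fold change 4.77, adjusted p = 0.0163). Without library 7 the log2 fold change of *sb:cb1058* was 4.12 (adjusted p = 0.173), and its young level was highest in liver and next in gut. Also higher was *cngb3.2*, a channel subunit of cone photoreceptors, with 58.9, 48.6, 59.3 and 9.09 in aged cave muscle, against 13.5, 0.98, 0.956 and 6.56 in aged surface muscle (log2 fold change 2.99, adjusted p = 0.0161). The filter of edgeR left out 3 of these 4, and for *cngb3.2* it gave an adjusted p of 0.141. The gene *si:dkey-33c12.3*, whose young level was highest in brain, had 17.2, 22.5, 23.4 and 21.9 in aged cave muscle, against 69.2, 243, 49.7 and 85.2 in aged surface muscle (log2 fold change -2.39 ± 0.54 SE, adjusted p = 0.000822).

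The lists of fast fibre, slow fibre, calcium, glycogen and myogenic genes held no called member. The 4 fast fibre genes with a symbol had a median of -0.11, and the actin gene *acta1b* had 399200, 320100, 134100 and 187900 normalized counts in aged cave muscle, against 284800, 328900, 309500 and 220400 in aged surface muscle (log2 fold change -0.14, adjusted p = 0.948). The gene *mylz3*, a fast myosin light chain, had 345500, 229100, 83570 and 117600 in aged cave muscle, against 114600, 110200, 184000 and 91870 in aged surface muscle (log2 fold change 0.63, adjusted p = 0.614). None of 10 genes of calcium release and excitation was called, and their median was 0.11. In that list *ryr3*, a ryanodine receptor, ranged from 4961 to 10180 in aged cave libraries and 4378 to 7696 in aged surface libraries (log2 fold change 0.52, adjusted p = 0.513), and *MUSK*, the kinase of the neuromuscular junction, had 3048, 3920, 4325 and 1712 in aged cave muscle, against 1362, 1716, 2074 and 1925 in aged surface muscle (log2 fold change 0.88, adjusted p = 0.143). The single slow fibre gene, *myoz2b*, spanned 1063 to 2035 in aged cave libraries and 329 to 5115 in aged surface libraries. Of 12 myogenic genes none was called. The gene *myog*, the myogenin gene, had 139.9, 32, 75.4 and 13.6 in aged cave muscle, against 76.3, 278, 159 and 138 in aged surface muscle (log2 fold change -1.32, adjusted p = 0.322). The satellite cell marker *pax7a* ranged from 7.57 to 31.9 in aged cave libraries and 19.7 to 34.4 in aged surface libraries. Its paralogue *pax7b* ranged from 18.2 to 73.6 in aged cave libraries and 37.1 to 79.4 in aged surface libraries. No call was made among 34 ribosomal protein genes, whose median was 0.06, and *rpsa* was at 31740 to 51810 in aged cave libraries and 23290 to 44830 in aged surface libraries. The cavefish candidate genes tested were *ptch1* and *kita*, with log2 fold changes of 0.15 and -0.51 and adjusted p values of 0.946 and 0.854.

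The study asks about DNA damage and aging in these fish. Of 107 DNA damage and repair genes listed, only 10 had a symbol here and were tested. None of the 10 was called, with 8 of 10 above 0 and a median of 0.24. Over all genes tested, 7018 of 13936 were above 0. The log2 fold change of *gadd45ga* was -0.159 with all libraries (adjusted p = 0.968) and 1.31 without surface library 8 (adjusted p = 0.032). Its fits without each of the other libraries are not given here. The gene *ccng1*, a cyclin induced by p53, had 24110, 36510, 11510 and 14390 normalized counts in aged cave muscle, against 8948, 11000, 6995 and 14720 in aged surface muscle (log2 fold change 1.05 ± 0.41 SE, adjusted p = 0.158), so that cave library 7 lay below surface library 8. The gene *gadd45ba*, a growth arrest gene induced by stress, had 3478, 7957, 5695 and 8537 in aged cave muscle, against 1910, 2885, 4654 and 4269 in aged surface muscle (log2 fold change 0.90, adjusted p = 0.229). The gene *cdkn1a*, the p21 inhibitor of the cell cycle, had 71.2, 263, 142 and 111 in aged cave muscle, against 30.5, 129, 134 and 469 in aged surface muscle (log2 fold change -0.38, adjusted p = 0.912), with both its lowest and its highest value in surface fish. In young fish *cdkn1a* was lower in cave muscle, with a log2 fold change of -2.27 (adjusted p = 0.00215). The gene *ddb2*, which detects ultraviolet lesions, ranged from 161 to 257 in aged cave libraries and 115 to 272 in aged surface libraries (log2 fold change 0.24, adjusted p = 0.885). Over all pathway lists, 10 of 210 tested members were called (4.76%, against 3.99% of all genes tested). Of these 8 were higher (3.81%, against 1.97%) and 2 lower (0.952%, against 2.02%). All list members have a symbol, and of the 1795 tested genes with a symbol 38 were called higher and 16 lower. Higher calls thus outnumbered lower calls among the named genes as a whole. Whether the share called higher in the lists exceeds that of the named genes was not tested. Without cave library 7 the counts of list members called higher and lower were 5 and 1, and without surface library 8 they were 19 and 4. Among the further calls were *trim63a*, *fbxo32*, *plin2*, the stress gene *ddit4* and *ccng1* higher, and *junbb* and *ier2a* lower.

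Genes of other tissues entered the calls as well. Of 53 tested gut-specific genes, 11 were called lower and 1 higher in aged cave muscle, and of 92 liver-specific genes 17 were called lower and 0 higher, against 2.02% lower and 1.97% higher over all genes tested. Of 415 brain-specific genes 12 were called lower and 8 higher, and of 25 heart-specific genes 2 were called lower and 0 higher. Without cave library 7, 10 gut-specific genes were called lower and 0 higher, and 14 liver-specific genes lower. The single gut-specific gene called higher had its highest value in that library and an adjusted p of 0.482 without it. The 11 gut-specific genes together had 0.851, 1.52, 2.74 and 5.46 CPM in the aged cave libraries, against 46.1, 9.06, 630 and 203 CPM in the aged surface libraries. Library 7 of the cave fish, rich in other gut genes, was thus low in these. All 11 were also called lower in young cave muscle, at 1.82 to 5.26 CPM against 67.3 to 347 CPM in young surface muscle. The rule for gut-specific genes used the median of young muscle over both populations, which is lowered where young cave muscle is near 0. The young values thus helped to choose the 11 and are no separate check. In aged gut, brain, heart or liver, 0 of the 11 was called lower. Several of the 11 had no adjusted p in aged brain, heart or liver and could not be called there. ENSAMXG00000012956 was called higher in aged cave liver (log2 fold change 6.73, adjusted p = 6.71e-07). Among the 11, the unnamed gene ENSAMXG00000007189 had 1.23, 4.75, 3.59 and 18.2 in aged cave muscle, against 180.5, 50, 2710 and 698 in aged surface muscle (log2 fold change -7.02 ± 1.25 SE, adjusted p = 3.77e-06, and edgeR adjusted p = 0.0386). The 17 liver-specific genes had 82 to 112 CPM in aged cave libraries, against 186 to 490 CPM in aged surface libraries. Among them ENSAMXG00000016035 had the highest mean, 1759 normalized counts, and the next highest was 181, so the sums follow mainly that gene. It had 1166, 1343, 643 and 851 in aged cave muscle, against 3038, 3196, 2193 and 1641 in aged surface muscle. Most of the other liver-specific genes called lower were highest in surface library 5. Of the 17 genes, 3 were called without surface library 5. Only 2 of the 17 were called in young muscle. There the liver-specific genes took 0.342% and 0.244% of the counts in cave libraries 1 and 2. The other young cave libraries had 0.0875% and 0.0822%, and the young surface libraries 0.0616% to 0.121%. The part of these counts in the young result was not tested. The 17 genes are themselves part of the liver-specific share of the aged libraries given above. Aged surface library 5 was highest in both. Surface library 6 had the lowest surface share, at 0.115%, and 303 CPM on the 17 genes, against 186 and 200 CPM in surface libraries 7 and 8. ENSAMXG00000016035 had its highest value, 3196 normalized counts, in surface library 6, so the 303 CPM reflects mainly that gene. The part of the liver-specific share in the result was not tested. Among 68 muscle-specific genes 3 were called higher and 2 lower, and the 2 lower genes together had 1110 to 2530 CPM in aged cave muscle, against 2850 to 13600 CPM in aged surface muscle.

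Differences close to on or off were found in genes without a symbol. In 4 genes no cave library had more than 3 counts while every surface library had at least 20, and 11 genes showed the reverse. ENSAMXG00000040991 was at 0 counts in all 4 aged cave libraries, against 88.9, 224, 85.1 and 50.3 normalized counts in aged surface muscle, at least 36.8-fold lower in cave for a floor of 3 counts per library. It had 0, 1.2, 0 and 1.5 in young cave muscle, against 0, 0, 66.7 and 129.8 in young surface muscle. There the groups overlapped and the gene was not called (adjusted p = 0.218). ENSAMXG00000010565 fell just outside that rule, with 8 counts in surface library 5, and was higher in cave. It had 135, 282, 587 and 192 in aged cave muscle, against 7.18, 1.96, 0 and 0 in aged surface muscle (log2 fold change 6.98 ± 0.79 SE, adjusted p = 1.19e-15). ENSAMXG00000032115, also just outside the rule with 4 counts in surface library 7, had 166, 152, 142 and 81 in aged cave muscle, against 0, 0.98, 3.83 and 0 in aged surface muscle (log2 fold change 6.79 ± 0.78 SE, adjusted p = 5.53e-15). In young muscle its difference was smaller, at 2.75 (adjusted p = 5.64e-05), and the population by age interaction was 4.04 ± 0.95 SE on the log2 scale (adjusted p = 0.0116, DESeq2, and 0.273, edgeR).

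Young muscle, which shares no library with the aged comparison, was used to see which differences were there at about 1 year. Some young libraries also held counts of other tissues. Liver-specific genes took 0.342% and 0.244% of the counts in young cave libraries 1 and 2. Young cave library 2 had 0.506% on brain-specific and 17.9% on muscle-specific genes, against 0.0742% to 0.25% and 26.2% to 32.6% in the other young libraries. In young muscle 543 of 15193 genes were called (3.57%), 226 higher (1.49%) and 317 lower (2.09%) in cave, and edgeR called 91 (0.765%). Without cave library 4 the count was 342, without surface library 2 it was 1306, without surface library 3 347 and without surface library 4 352. Of the 555 genes called in aged muscle with a value in young muscle, 465 (83.8%) had the same direction, against 8235 of 13932 genes tested. The median young log2 fold change was 0.91 for genes called higher in aged muscle, whose aged median was 2.12, and -0.86 for genes called lower, whose aged median was -2.22. The aged values chose these genes, so the sizes at the 2 ages are given as a description. Both ages called 132 genes, which were 23.7% of the aged and 24.3% of the young calls, and 130 of them had the same direction, 65 higher and 65 lower. Of the 54 named genes, 42 had the same direction in young muscle and 10 were called there. These were *tecpr2*, with a young log2 fold change of 2.37 (adjusted p = 9.27e-07), *ank1b*, *il20ra* and *cngb3.2* higher, and *akr1b1.1* at -2.58 (adjusted p = 0.0117), *serpinh1b* at -2.09 (adjusted p = 0.00131), *adss2* at -1.39 (adjusted p = 0.0202), *aifm2*, *s1pr5a* and *si:dkey-33c12.3* lower. By contrast *lepr* had 0.17 (adjusted p = 0.908) and *gsta.1* 0.04 (adjusted p = 0.979) in young muscle.

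**Figure D4:**
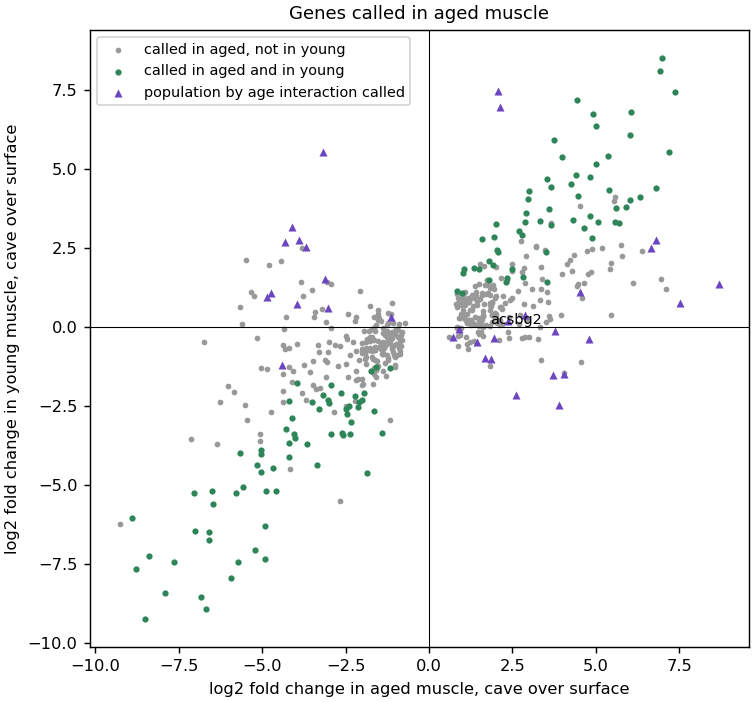
Log2 fold change of cave over surface in young muscle (vertical axis) against the same in aged muscle (horizontal axis) for genes called in aged muscle. Grey points were called in aged but not in young muscle, green points in both (132 genes with those that also passed the interaction), and violet triangles are the 33 genes for which the population by age interaction was called.

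Whether the population difference itself differs with age was assessed with the interaction of population and age, fitted to the 16 muscle libraries together. DESeq2 called 82 of 14756 genes (0.556%), 52 (0.352%) with a more positive cave over surface difference in aged fish and 30 (0.203%) with a more negative one. edgeR called 0 of 12898 genes (0%), with 1111 at an unadjusted p under 0.05, so the calls rest on 1 tool. The count was 414 without surface aged library 8 and 140 without surface young library 2. It was 31 to 54 without cave young library 1, cave aged library 6, 7 or 8, surface young library 3 or 4, or surface aged library 5 or 6. Of the genes called in aged muscle 33 were among the 82, and *acsbg2* was the single gene with a symbol. Its interaction was 3.90 ± 1.03 SE on the log2 scale (adjusted p = 0.0385, DESeq2, and 0.328, edgeR). Its normalized counts were 1197, 869, 536 and 999 in young cave muscle, against 187, 1584, 218 and 1966 in young surface muscle, and the young groups overlapped. The young log2 fold change was -0.14 (adjusted p = 0.956). For *lepr* and *gsta.1* the interaction had adjusted p values of 0.303 and 0.0831, so a difference between ages was not shown for them.

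To see where the muscle genes differed in other tissues of aged fish, each tissue was fitted in the same way. Groups held 4 libraries, except 3 in aged cave brain and 3 in aged surface gut. The labels of the aged cave heart libraries conflict on age, as given below. Of all genes tested in each, 2385 were called in brain (14.9%), 852 in gut (5.91%), 1132 in heart (7.58%) and 563 in liver (4.5%). Of the 556 muscle genes, 246 of 517 tested (47.6%) were called in brain, 134 of 496 (27%) in gut, 217 of 525 (41.3%) in heart and 115 of 450 (25.6%) in liver. Among these, the direction was that of muscle for 231 in brain, 130 in gut, 216 in heart and 112 in liver. Altogether 62 genes were called in the same direction in muscle and in all 4 other tissues, 36 higher and 26 lower, while 228 were called the same way in no other tissue. The labels do not say whether the tissues came from the same fish, so these are not independent samples of the populations.

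Of the 62 genes 8 had a symbol. The gene *akr1b1.1* had a log2 fold change of -2.65 in brain, -4.14 in gut, -2.85 in heart and -3.93 in liver. The gene *serpinh1b* fell by 0.596, 2.57, 1.198 and 2.35 on the log2 scale in these tissues, and *niban1b* by 1.94, 3.37, 1.63 and 3.88. The gene *aifm2* was lower in all 4, with counts near 0 in cave, for which fitted folds depend on the method. The gene *dbpb* was higher by a log2 fold change of 2.12, 1.57, 2.28 and 2.21 in these tissues. The genes *il20ra* and *cngb3.2* were higher in all 4. In contrast 28 of the 54 named genes were called the same way in no other tissue, among them *tecpr2*, *acsbg2*, *gsta.1*, *s100v1*, *tomm22* and *got1*. The gene *lepr* was higher in heart (1.14, adjusted p = 0.00142) and lower in liver (-4.81, adjusted p = 0.000246), so its direction in liver was opposite to that in muscle.

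**Figure D5:**
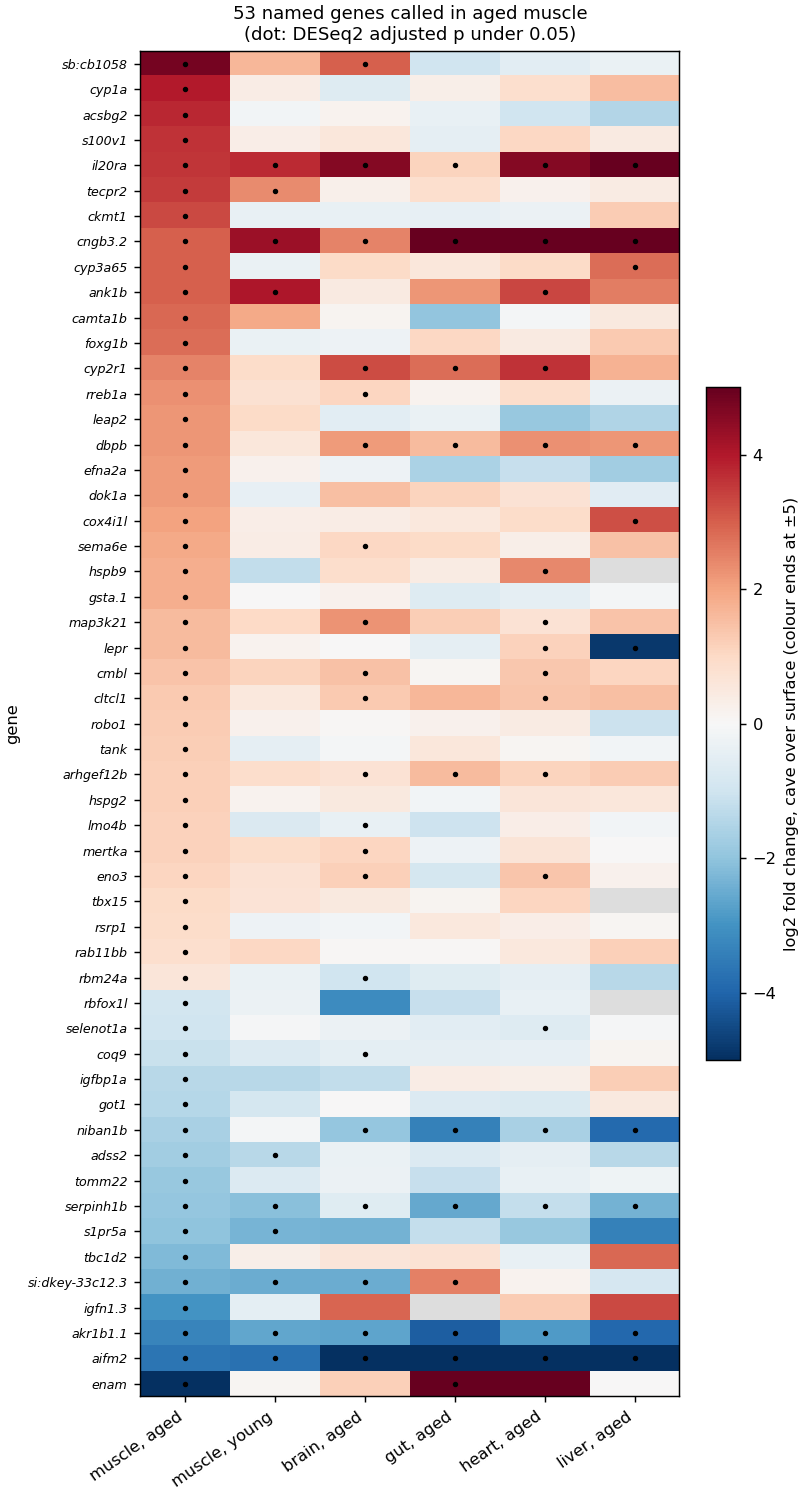
Log2 fold change of cave over surface for 53 named genes called in aged muscle (rows) in aged and young muscle and in 4 other tissues of aged fish (columns). Red is higher and blue lower in cave, a dot marks an adjusted p under 0.05 and grey marks a gene without a value. Dots run across the whole row for *akr1b1.1*, *serpinh1b*, *aifm2*, *il20ra* and *cngb3.2*.

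In a principal component analysis of the 500 most variable genes, PC1 held 45.14% of the variance and set cave libraries 7 and 8 and surface library 5 apart from the others, with scores of -15.3, -12.7, 39.5 and 27.3 for cave and 12.8, -24.7, -19.2 and -7.62 for surface libraries. A difference between the populations was not detected on it (exact permutation p = 0.257, two-sided, adjusted 0.386). Most of the 500 genes had positive loadings on PC1, up to 0.119. The gut gene *slc15a1b* (0.0455) and the ligase gene *fbxo32* (0.0651) were among them. PC2 held 18.95% and separated all cave libraries (3.86 to 21.2) from all surface libraries (-27.6 to 3.2), with an exact permutation p of 0.0286, the smallest that 4 against 4 libraries can give, and 0.0858 after adjustment over 3 components. On all 11438 genes kept by filterByExpr the exact permutation p of the second component was 0.314.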

How the data were processed

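RNA of 78 samples was sequenced by a commercial provider after poly-T selection, and the authors mapped the reads with STAR to the *A. mexicanus* assembly version 2.0. The deposited values are whole counts of reads per Ensembl gene, made by the authors with STAR, with no normalization. The strand setting and the handling of reads with several matches are not given in the sources used here, so near-identical copies and overlapping genes are uncertain. Tissues were deposited in separate tables, and all columns were used only within their own table, except that CPM were compared to find tissue-specific genes. No column was left unused (0).

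Libraries were grouped by the labels' population, tissue and age class. For cave heart numbers 5 to 8, 1 label says young and the age attribute says aged, and they were grouped as aged. As in the study's methods, DESeq2 1.42.0 in R 4.3.3 fitted each subset, with its size factors, Cook filter and independent filtering, and edgeR 4.0.16 (quasi-likelihood test, TMM factors, filterByExpr) was run beside it. Adjusted p-values are Benjamini-Hochberg values over all genes tested by that tool. Both were tested on simulated data first. The choice of DESeq2 as the main test follows the study. Cave young heart 1 was left out of the tissue medians. Total counts were 8403022 to 14002802 in aged muscle, and low counts limit precision most in genes with few reads.

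Named genes were those called by both tools that had a symbol, no overlap of the groups and 50 or more normalized counts on average, the members of each list that were called or were most abundant, genes called for the interaction, and at most 2 identifiers without a symbol in each direction. The members and lists were chosen with earlier results of these data known, and naming was widened to all 54 called genes with a symbol after their values were seen. Of the called genes with a symbol, 1 is not reported here. No sequences are shown.

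Alternatives were other size factors, other filters, the replicate number as a block, 1 fit of all muscle libraries and each library left out. Columns of the authors' own comparisons were not used.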

Additional observations from a re-analysis of the deposited data

Results flagged for a closer look

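In groups of 4 libraries, the highest or lowest value stood apart from the rest by Dixon's 95% criterion in 16 of 110 groups tested. A chance rate of about 1 in 20 holds for independent, normally distributed values. The groups here share libraries, and many are counts of genes chosen because they were called. The 16 therefore cannot be set against that rate, and are listed as a description. Cave library 7 was the high one for *sb:cb1058* (27.84 normalized counts), *cyp1a* (96.09), *il20ra* (51.19), *cyp3a65* (787.6), *lepr* (1962) and *rbm24a* (1763), and for the share of counts on gut-specific genes (0.747%). It was the low one for *rreb1a* (368.2) and *hspg2* (968.1). Among the other cave libraries, library 8 stood apart for *efna2a* (71.16) and *enam* (0.7571), and library 5 for *selenot1a* (263.8). Among surface libraries, library 7 stood apart for *dbpb* (133.9) and *sb:cb1058* (1.912), and library 8 for *rreb1a* (242.6) and *hspg2* (848.9). The values of *enam* in cave library 8 and of *sb:cb1058* in surface library 7 rest on 1 and 2 raw counts.

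The cave over surface difference of *acsbg2* differed between aged and young muscle by 3.9 on the log2 scale, with an adjusted p of 0.0385 by the interaction test of DESeq2 and 0.328 by edgeR.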

How the results depend on the processing

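None of the 54 called genes with a symbol reversed its direction under the alternatives run. Of 200 pathway members that were not called, 87 had fold changes of both signs among the fits with 1 library left out, *acta1b*, *gapdh* and *myoz2b* among them. DESeq2 called 275 genes higher and 281 lower in aged cave muscle, and edgeR 89 higher and 62 lower. With edgeR, 151 genes were called in aged muscle, 91 in young muscle, 0 for the interaction, 180 in aged gut, 286 in aged heart and 141 in aged liver, and in the pathway lists 3 members were called higher and 0 lower. Leaving out each library in turn gave 361 to 899 calls in aged muscle, 342 to 1306 in young muscle, 31 to 414 for the interaction, and 4 to 19 members higher and 1 to 6 lower in the pathway lists. DESeq2 with TMM factors called 549 genes, with filterByExpr 490, without independent filtering 516 and with all 16 libraries in 1 fit 523. On all genes kept by filterByExpr the second principal component had a cave minus surface difference of 20.02 (exact permutation p = 0.314). Over the 54 named genes, 12 of the 50 with an edgeR value were called by edgeR.

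Whether the replicate numbers pair the libraries was checked in aged muscle only, and the check does not settle it. Deviations of same-numbered aged cave and surface libraries correlated across genes at -0.329, 0.325, -0.113 and 0.0883. Those of differently numbered aged libraries correlated at -0.597 to 0.457. Young pairs were not examined. With the replicate number as a block DESeq2 called 485 genes in aged muscle, 1202 in young muscle and 244 for the interaction.

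Chosen after seeing the data, edgeR with the replicate block called 20 genes, edgeR on all 16 libraries 198, edgeR without cave library 5 81, 6 57, 7 83 and 8 104, without surface library 5 87, 6 95, 7 81 and 8 156, and DESeq2 without both cave library 7 and surface library 5 called 265. Depth limits calls in genes near 0 counts.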
